A study of Triticum aestivum with 96 samples.

Results

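Flag leaves of mature bread wheat were compared between subjective dusk and subjective dawn, by gene expression in 24 of the 96 RNA-seq libraries of a time course in continuous light. The libraries were chosen by sampling time alone: 12 were taken at ZT59, ZT61, ZT63, ZT83, ZT85 and ZT87 (dusk) and 12 at ZT47, ZT49, ZT51, ZT71, ZT73 and ZT75 (dawn), with 2 libraries at each time. ZT (Zeitgeber time) counts hours from the last dawn signal. Time of day here is the hour within the former 24 h day, so the dusk libraries fall at 11, 13 and 15 h and the dawn libraries at 23, 1 and 3 h.

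All plants were of the Australian cultivar Mace, grown in 1 room with 12 h of light at 20 °C and 12 h of darkness at 15 °C until ZT0, when light and a temperature of 20 °C became continuous. Mature plants, at ear emergence, and senescent plants, whose flag leaves were already losing chlorophyll, came from sowings 28 days apart, and both were sampled every 2 h from ZT45 to ZT91. At each time, whole flag leaves came from the primary tillers of 4 plants, and each library pools the RNA of 2 leaves. Dusk and dawn leaves therefore shared genotype, stage, room and light, and differed in sampling time. The first cycle pairs dusk at ZT59 to ZT63 with dawn at ZT47 to ZT51, and the second pairs dusk at ZT83 to ZT87 with dawn at ZT71 to ZT75. Within a cycle every dusk library was taken later in continuous light than every dawn library. Time of day and time since the switch thus cannot be told apart within 1 cycle. The main comparison below is the mean of the 2 within-cycle differences, with the level of each cycle free, so it has the same limit.

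A plant's circadian clock is a set of transcription factors that repress one another in turn through the day and keep cycling when light and temperature no longer change. In Arabidopsis, LHY and its relatives peak near dawn and repress genes such as TOC1 and GIGANTEA that peak towards dusk, and the evening proteins repress the dawn genes in return. In leaves, this order sets when genes of photosynthesis, starch turnover, growth and stress responses are read, so dawn and dusk lie on opposite sides of the clock's cycle. The files name genes by identifier alone, and none of these identifiers was found in the reference gene table used here, so no clock gene, pathway or leaf marker could be looked up. The labelled tissue was therefore not checked against marker genes. The chromosome of a gene is read from its identifier (TraesMAC5A lies on 5A, chromosome 5 of subgenome A).

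Levels are scaled counts: the authors' read counts per gene, rescaled between libraries. Estimated reads assigned to genes ranged from 5315514 to 9266737 a library. The labels call the 2 libraries of a time biological replicates, from separate leaf pools, and each was counted as a sample. No pair looked like 1 library deposited again, with a chi-square per gene between them of 2.66 to 10.5. Libraries of 1 time still share the sampling occasion, and with the mean of each time as the sample, fewer genes were called than are given below (2992 higher and 4262 lower at dusk). Along the first principal component, which held 26.4% of the variance, dusk libraries lay between -77.8 and -20.1 and dawn libraries between 7.92 and 100.6, with no overlap.

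The summed scaled count was lower at dusk. It averaged 7095810 ± 477159 in dusk libraries and 8012660 ± 401686 in dawn libraries (SD, n = 12 each; ratio 0.886; two-sided permutation test, p = 0.00012, adjusted over 4 measures of a library 0.00048). The ratio was 0.874 in cycle 2 (exact permutation test, p = 0.00216, adjusted 0.00432) and 0.897 in cycle 1 (exact permutation test, p = 0.0108, adjusted 0.0432). Among the first replicates alone it missed the threshold once adjusted (exact permutation test, p = 0.0216, adjusted 0.0864). Among the second replicates alone it passed (exact permutation test, p = 0.00433, adjusted 0.0173). Estimated reads averaged 6484970 at dusk and 7107000 at dawn, a difference that did not pass the test (permutation test, p = 0.136). Their ratio was 1.00 in cycle 2 (exact permutation test, p = 1) and 0.837 in cycle 1 (exact permutation test, p = 0.0433, adjusted 0.0866). The 100 most abundant genes took 17.7% ± 1.94 of the scaled counts at dusk and 20.1% ± 1.91 at dawn (SD, n = 12 each; permutation test, adjusted p = 0.014), a call lost without replicate 1 (exact permutation test, adjusted p = 0.134) and without replicate 2 (0.133). That gap was 16.7% against 20.6% in cycle 2 (exact permutation test, p = 0.00216) and 18.8% against 19.5% in cycle 1 (exact permutation test, p = 0.511).

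**Figure D1:**
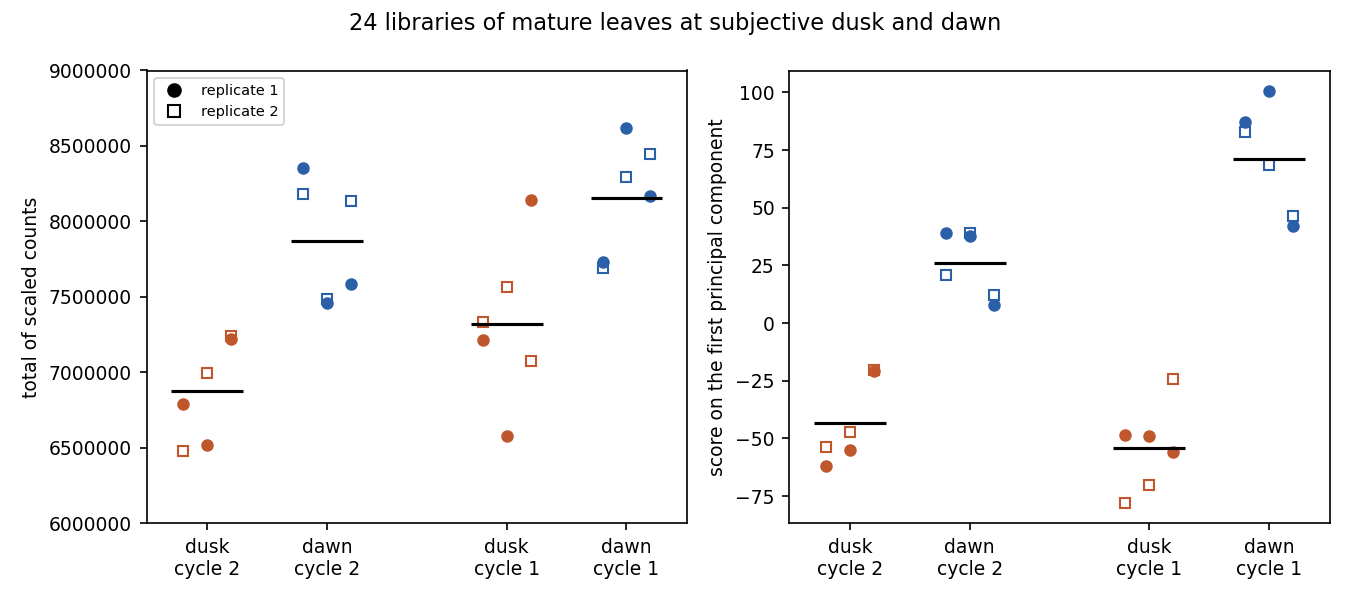
Summed scaled counts (left; the axis does not start at 0) and score on the first principal component, without unit (right), of the 24 libraries, dusk in orange and dawn in blue, with filled circles for replicate 1, open squares for replicate 2, the 3 sampling times of each cell side by side and a black line at the mean of 6 libraries. Totals overlap between dusk and dawn, with 1 dusk library of cycle 1 at 8139832, while the component scores do not overlap.

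Across the 42221 genes whose scaled count averaged 10 or more, 9783 differed between dusk and dawn (23.2% of those tested; limma on log2(scaled count + 2), Benjamini-Hochberg adjusted p under 0.05). Of these, 4183 were higher at dusk (9.91%) and 5600 were lower (13.3%). Most changes were small: the median was 0.56 log2 among genes higher at dusk and -0.62 log2 among genes lower at dusk, and 37.7% of the called genes changed by less than 0.5 log2. Changes of at least 1 log2 were found in 1828 genes (4.33%), 531 higher at dusk (1.26%) and 1297 lower (3.07%). At 3 log2 or more, 28 genes were higher and 70 were lower. Large changes thus fell mostly on the dawn-high side, with 29.0% of the genes past 1 log2 higher at dusk, and 42.8% of all called genes. The 12 dusk and 12 dawn values did not overlap in 615 genes (1.46%), of which 184 were higher (0.436%) and 431 lower at dusk (1.02%).

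That balance depended on how libraries were scaled. Dividing each library by its total, rather than using the deposited scaling, moved the median difference of all genes by 0.17 log2 and gave 10742 genes higher and 3340 lower at dusk, so that 76.3% of the called genes were higher. Past 1 log2 the split became 870 higher and 941 lower, or 48.0% higher. Scaling by the median of gene ratios gave 4261 higher and 5523 lower, close to the deposited scaling. That method centres the median gene, which the deposited scaling already held near 0, so the closeness is no check of the deposited scaling. Which scaling follows RNA per leaf was not tested, and changes below are relative to the deposited scaling, in which the median gene differed by 0.01 log2.

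The genes named here are those with the largest differences among genes of at least 100 scaled counts on average whose dusk and dawn libraries did not overlap. The lack of overlap was thus a condition of the choice for each, and their differences and p-values are favoured by it. TraesMAC5A03G02614810, on chromosome 5A, had a lowest, median and highest scaled count of 93.7, 252 and 421 in dusk libraries and of 0, 15.5 and 45.8 in dawn libraries. Every dusk library lay above every dawn library, and the difference was 4.17 ± 0.42 log2 (SE; limma, adjusted p = 2.61e-08). Its mean over 4 libraries was lowest at 3 h, at 2.97, and highest at 13 h, at 357, with 162 at 15 h.

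TraesMAC7A03G03886310, on chromosome 7A, had a lowest, median and highest scaled count of 485, 883 and 1158 at dusk and of 5.90, 49.5 and 134 at dawn. As the choice required, no dusk library reached down to the dawn range, and the difference was 4.16 ± 0.28 log2 (SE; limma, adjusted p = 2.66e-11). Its mean was already 1049 at 9 h, before the dusk window, and 558 at 15 h, so its level was falling through the dusk hours.

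Among genes lower at dusk, TraesMAC1B03G00394340, on chromosome 1B, had a lowest, median and highest scaled count of 0.974, 6.84 and 29.5 in dusk libraries and of 152, 227 and 335 in dawn libraries. The groups did not overlap and the difference was -4.69 ± 0.30 log2 (SE; limma, adjusted p = 1.08e-11). Dawn was a plateau for this gene, with means of 206 at 23 h, 242 at 1 h and 225 at 3 h, while the dusk hours held its trough, with 4.84 at 11 h, 4.58 at 13 h and 18.1 at 15 h.

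TraesMAC7B03G04136500, on chromosome 7B, was about 10 times as abundant: its lowest, median and highest scaled counts were 36.5, 107 and 347 at dusk and 1099, 2209 and 3484 at dawn. The difference was -4.27 ± 0.30 log2 with no overlap (SE; limma, adjusted p = 5.55e-11). Its mean was highest at 23 h, at 2808, and had returned to 1042 by 17 h, just after the dusk window. These 4 genes kept their direction and stayed past the threshold in all 42 alternative settings run for each. Those settings reuse the libraries on which the genes were picked. Reads may be shared between near-identical copies of a gene on the 3 subgenomes, and how such reads were counted is not given in the sources used here, so the values of any single copy are uncertain.

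**Figure D2:**
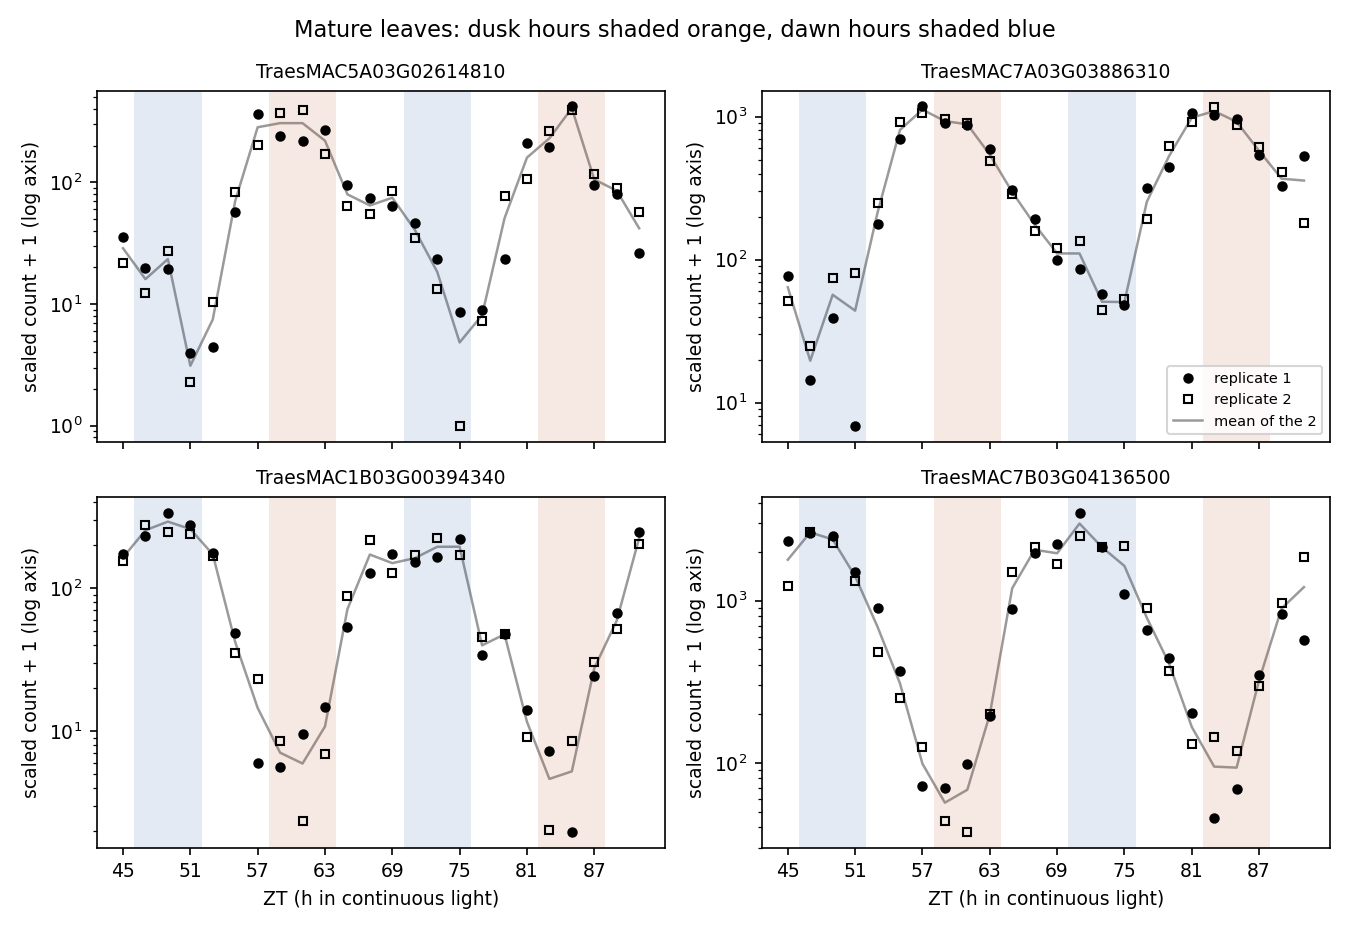
Scaled count plus 1, on a log axis, of the 4 genes named for the dusk against dawn comparison at every sampling time of mature leaves, with dusk hours shaded orange, dawn hours blue, 1 symbol a library and a line through the mean of the 2 libraries. The upper pair peaks in or just before the dusk hours and the lower pair has its trough there, in both cycles.

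Genes of high abundance were more often lower at dusk. Of 872 genes averaging 1000 scaled counts or more, 80 were higher and 344 lower at dusk (39.4% lower). Of 5458 genes between 200 and 1000, 609 were higher and 1643 lower (30.1% lower), and of 16048 genes between 50 and 200, 1726 were higher and 2223 lower. Only in the class of 10 to 50 did higher genes outnumber lower ones, with 1768 against 1390 of 19843. With libraries scaled to their totals, the most abundant class was nearly even, with 210 higher and 241 lower. The classes also differ in reads per gene, and the part of depth in these shares was not tested.

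The abundant genes carried most of the lower total at dusk. Genes averaging 1000 or more summed to 2930660 scaled counts a library at dusk and 3528200 at dawn, a ratio of 0.831 and 65.2% of the whole difference in total. Genes between 10 and 50 summed to 521007 at dusk and 515215 at dawn. The 100 genes with the largest fall in mean scaled count, chosen by that fall, summed to 49.6% of the difference in total. That difference is net of genes that rose, so the share of these 100 genes in all falls was smaller. Of the 100, 75 were called lower at dusk, a count favoured by the choice. All 100 averaged at least 1000 scaled counts, and 39.4% of the tested genes at that level were called lower. The summed scaled count depends on the scaling between libraries and is not an amount of RNA per leaf. For a gene lower at dusk in whole-leaf RNA, a lower level per cell and fewer cells of a type cannot be told apart.

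**Figure D3:**
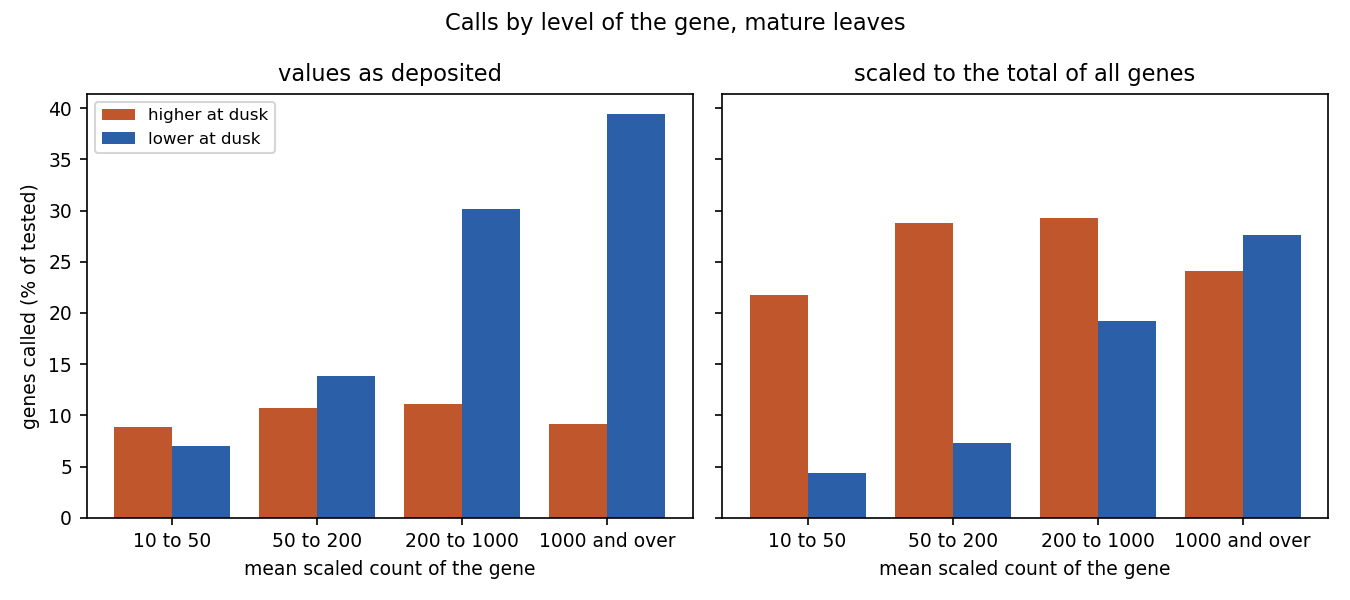
Share of tested genes called higher (orange) and lower (blue) at dusk, in percent, by mean scaled count of the gene, with values as deposited (left) and with each library divided by its total (right). As deposited, the share called lower reaches 39.4% among genes of at least 1000, while in total scaling higher genes outnumber lower ones in every class but the most abundant.

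No gene was switched fully between dusk and dawn. Among all 139118 genes of the table, 0 had a mean of at least 10 on 1 side and no reads in all 12 libraries of the other. With a mean under 1 allowed on the low side, 8 genes were at 10 or more at dusk and 13 at dawn.

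The contrast appeared in both cycles and was weaker in the second. In the shared fit, 3035 genes differed in cycle 2 (7.19%), 1114 higher and 1921 lower at dusk, against 9861 in cycle 1 (23.4%), 4391 higher and 5470 lower. Each cycle fitted alone, with 6 libraries a side, gave 1077 higher (2.55%) and 1880 lower genes (4.45%) in cycle 2, and 3599 higher (8.52%) and 4876 lower genes (11.5%) in cycle 1. Of the genes higher at dusk, 604 were shared, 56.1% of those of cycle 2 and 16.8% of those of cycle 1. Of the genes lower at dusk, 1256 were shared, 66.8% of those of cycle 2 and 25.8% of those of cycle 1. Only 6 genes were called in opposite directions.

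Genes picked in 1 cycle can be read in the other, whose libraries had no part in the pick. The 1170 genes higher at dusk by at least 1 log2 in cycle 1 (2.77%; median 1.28) had a median of 0.54 log2 in cycle 2, where 84.6% kept their direction. The 1969 genes lower by as much in cycle 1 (4.66%; median -1.43) had a median of -0.75 log2 in cycle 2, with 91.8% in the same direction. Read the other way, size was not lost: 376 genes picked as higher in cycle 2 (0.891%; median 1.33) had a median of 1.37 log2 in cycle 1, and 742 picked as lower (1.76%; median -1.45) had -1.58 log2. Over all tested genes, the median was 0.00 log2 in either cycle. Medians where a list was picked are raised by the pick.

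**Figure D4:**
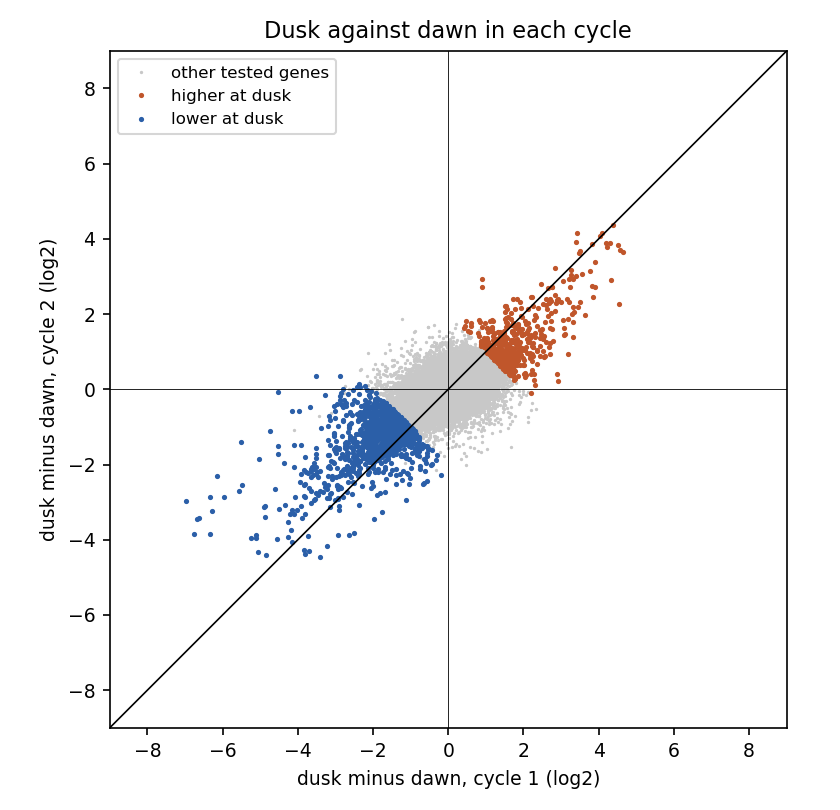
Dusk minus dawn difference in log2 of each tested gene in cycle 2 (vertical) against cycle 1 (horizontal), with the 531 genes higher at dusk by at least 1 log2 in orange, the 1297 lower ones in blue, all others in grey and a line where the cycles are equal. The difference was smaller in size in cycle 2 for 425 of the 531 and 1056 of the 1297 genes; the straight edges of the clouds come from the threshold.

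The difference between cycles itself passed the test in 402 genes (0.952%), with 364 smaller in size in cycle 2 and 38 larger. In 255 of the 402 the estimates of the 2 cycles had opposite signs, counted by sign alone, so estimates near 0 are included. The count of genes passing was 249 with libraries scaled to their totals and 842 among genes averaging 50 or more. It also rested on having both replicates: limma called 0 genes without replicate 1 and 1 gene without replicate 2. An unadjusted p under 0.05 was found in 3831 genes without replicate 1 (9.07% of those tested). Without replicate 2 it was found in 3195 (7.57%), and with both replicates in 7221 (17.1%). Along the first principal component it was the dawn side that moved most, with a mean score of 26.2 in cycle 2 and 71.2 in cycle 1, while dusk libraries averaged -43.1 in cycle 2 and -54.2 in cycle 1.

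The genes with the smallest p in that test both changed at dawn. TraesMAC5A03G02672320 had a dawn median of 79.4 scaled counts in cycle 2 and 360 in cycle 1, against dusk medians of 48.0 in cycle 2 and 33.0 in cycle 1. Its difference was -0.72 log2 in cycle 2 and -3.18 log2 in cycle 1, which differed by 2.46 ± 0.34 (SE; limma, adjusted p = 0.00307; 0.317 without replicate 1). TraesMAC5D03G03122770 moved the other way, with a dawn median of 344 in cycle 2 and 89.9 in cycle 1, and dusk medians of 252 in cycle 2 and 206 in cycle 1. Its difference was -0.44 log2 in cycle 2 and 1.29 log2 in cycle 1, which differed by -1.73 ± 0.25 (SE; limma, adjusted p = 0.00307; 0.21 without replicate 1 and 0.64 without replicate 2).

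The contrast also varied with the hours compared. Between 11 h and 23 h, 7114 genes differed (16.8%; 2622 higher, 4492 lower at dusk), between 13 h and 1 h 5591 (13.2%; 1999 higher, 3592 lower) and between 15 h and 3 h 3286 (7.78%; 1658 higher, 1628 lower), with 4 libraries a side. In all 3 pairs of hours, 271 of the 42221 tested genes were higher and 519 lower at dusk. Another 557 of the 42221 were higher in 1 pair and lower in another. Among the 1297 genes lower at dusk by at least 1 log2, the median was -1.72 log2 between 11 and 23 h, -1.68 between 13 and 1 h and -0.87 between 15 and 3 h. For the 531 higher genes it was 1.45, 1.58 and 1.14 log2. Those lists were picked on the same libraries, so their medians are descriptions. Over all genes, against 4183 higher and 5600 lower with every hour in, leaving out 13 and 1 h gave 1635 higher and 2561 lower, leaving out 11 and 23 h gave 2623 and 3502, and leaving out 15 and 3 h gave more, 4785 and 6648.

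Neither side was a steady state. Within dusk, 1681 genes were higher at 15 h than at 11 h (3.98%) and 565 were lower (1.34%). Of the 1297 genes lower at dusk by at least 1 log2, 339 (26.1%) were higher at 15 h than at 11 h and 43 were lower, with a median of 0.48 log2 over the list. Within dawn, 534 genes were higher at 3 h than at 23 h (1.26%) and 936 were lower (2.22%). Of the same 1297 genes, 39 were higher and 117 (9.02%) were lower at 3 h than at 23 h, with a median of -0.38 log2. Of the 531 genes higher at dusk, 12 were higher and 43 lower at 15 h than at 11 h, and 20 were higher and 34 lower at 3 h than at 23 h. Without 1 of the replicates the calls within dusk numbered 263 to 275 and those within dawn 8 to 141.

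The mature libraries taken between dusk and dawn had no part in choosing these genes. For the 531 genes higher at dusk, the level at midday (5, 7 and 9 h) exceeded that at night (17, 19 and 21 h) by a median of 0.58 log2, with 394 genes above and 137 below. For the 1297 genes lower at dusk the median was -0.78 log2, with 257 above and 1040 below, against 0.01 log2 over all tested genes. The sign of midday minus night was thus that of dusk minus dawn for most genes of both lists. By mean level over 12 times of day, 147 of the 531 were highest at 9 h, 89 at 11 h, 146 at 13 h and 95 at 15 h. Of the 1297, 427 were highest at 1 h, 319 at 21 h and 306 at 23 h. That no gene of the first list peaked in the dawn hours follows from how it was chosen.

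**Figure D5:**
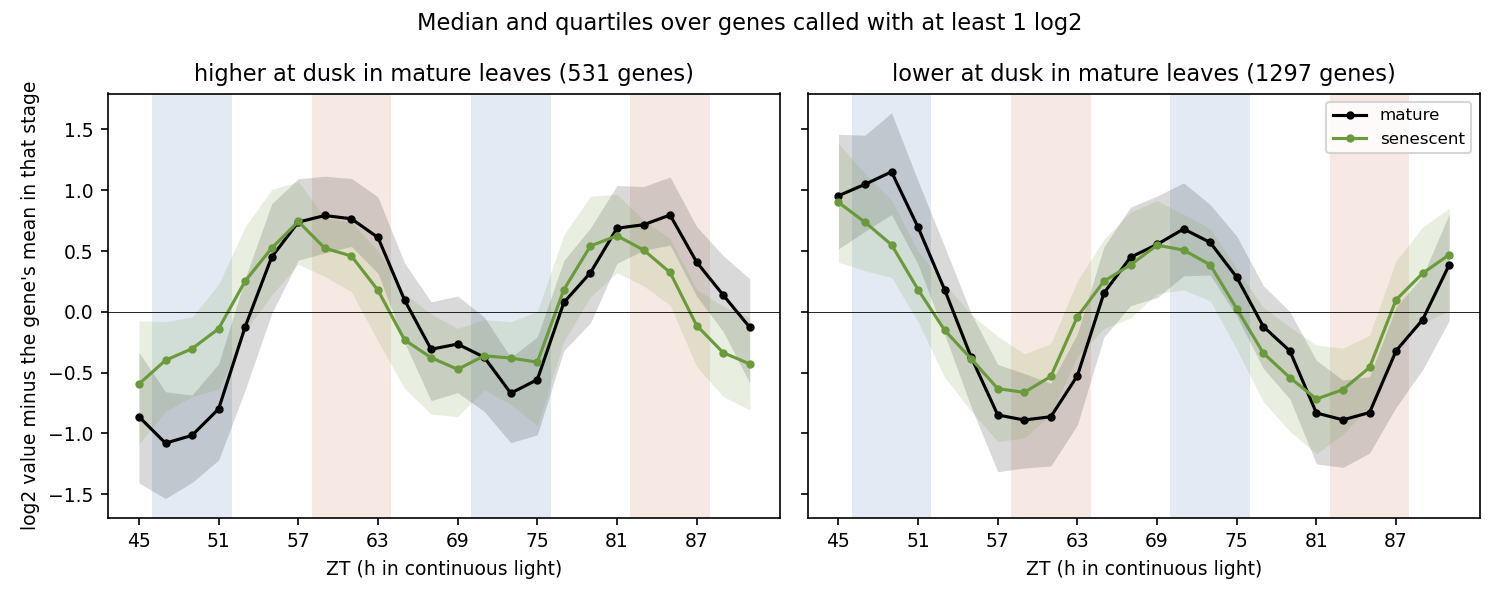
Median over genes, with quartiles shaded, of the log2 value minus the gene's mean in that stage, at each sampling time in mature (black) and senescent (green) leaves, for the 531 genes higher (left) and the 1297 genes lower (right) at dusk in mature leaves, with dusk hours in orange and dawn hours in blue. The medians rise and fall in both stages, with a smaller gap between dusk and dawn hours in senescent leaves, whose libraries were not used to choose the genes. For the 531 genes, the senescent median was 0.74 at ZT57, before the dusk hours, and 0.18 at ZT63. Mature leaves had 0.74 and 0.61 at those times. At ZT49, in the dawn hours, it was -0.30 in senescent and -1.02 in mature leaves. The gap between these fixed hours is thus not the whole change over the day.

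The same contrast could be set against that of senescent leaves, sampled in the same room at the same times. In a fit to both stages, 5232 of 42380 tested genes were higher and 6399 lower at dusk in mature leaves. In senescent leaves 3376 were higher (7.97%) and 3979 lower (9.39%). The mature counts differ from the 4183 and 5600 of the main fit, which used the mature libraries alone. Here the spread of a gene was estimated from the libraries of both stages. The difference between stages passed the test in 1227 genes (2.90%), of which 947 had the larger dusk-dawn difference in mature leaves and 280 in senescent leaves, and 646 had opposite signs. Without 1 of the replicates the count of genes passing was 27 to 47. Stage coincides with sowing batch, and the 2 cannot be told apart.

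Of the 531 genes higher at dusk, 505 were tested in both stages, with a median of 1.31 log2 in mature leaves and 0.65 in senescent leaves, where 445 kept the direction and 281 were called. Of the 1297 lower genes, 1235 were tested, with a median of -1.37 log2 in mature leaves and -0.78 in senescent leaves, where 1186 kept the direction and 785 were called. Over all tested genes in senescent leaves, 7.97% were called higher and 9.39% lower at dusk, and the median was 0.00 log2. As the lists were picked on mature libraries, the mature medians are favoured by the pick, and no test of the lists was made. The medians compare fixed hours, so they do not measure the whole change over the day in either stage.

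Among the genes named above, TraesMAC1B03G00394340 differed by -4.69 in mature leaves and by -4.28 in senescent ones, on the log2 scale. TraesMAC7B03G04136500 differed by -4.27 in mature and by -3.22 in senescent leaves on the same scale. The difference between stages was 2.75 ± 0.42 log2 for TraesMAC7A03G03886310, at 4.16 in mature and 1.41 in senescent leaves (SE; limma, adjusted p = 5.32e-05). Its mean scaled count in senescent leaves was 897 at midday, 507 at dusk, 190 at dawn and 87.7 at night. In mature leaves it was 650, 823, 54.3 and 228 in the same order. The dusk-dawn gap therefore does not measure its whole change over the day. TraesMAC5A03G02614810 had 4.17 in mature and 2.24 log2 in senescent leaves, a difference of 1.94 ± 0.59 that missed the threshold (SE; limma, adjusted p = 0.0616).

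The genes with the smallest p for a stage difference had a contrast in mature leaves alone that passed the test. TraesMAC6B03G03627680 had a lowest, median and highest scaled count of 109, 135 and 164 at dusk and of 33.4, 55.8 and 75.8 at dawn in mature leaves. In senescent leaves it had 107, 148 and 189 at dusk and 102, 173 and 214 at dawn. Its senescent values were 149, 263 and 310 at midday and 91.4, 119 and 152 at night, so its level still varied over the day. The dusk and dawn ranges were apart in mature leaves and overlapped in senescent leaves, with differences of 1.27 and -0.09 log2 (stage difference 1.36 ± 0.15, SE; limma, adjusted p = 6.75e-08).

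TraesMAC5B03G02898440 had a lowest, median and highest scaled count of 37.8, 68.1 and 123 at dusk and of 132, 233 and 484 at dawn in mature leaves. In senescent leaves the values were 20.5, 29.9 and 40.2 at dusk and 8.18, 24.02 and 38.0 at dawn. Dusk minus dawn was -1.84 log2 in mature leaves and 0.34 log2 in senescent ones (stage difference -2.18 ± 0.23, SE; limma, adjusted p = 6.75e-08). Its level in senescent leaves was below that in mature leaves on both sides.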

How the data were processed

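Poly-A or other enrichment, strand, genome build and annotation are not given in the sources used here. Libraries were made with a NEBNext Ultra kit, per the labels' protocols. Reads were handled with bcl2fastq 2.17, STAR, Cufflinks and Cuffnorm, per the submitters' processing notes. The deposited values are a signal per gene: in every library at least 99.96% of values were whole multiples (within 0.1) of 1 number between 0.516 and 1.43, as read counts rescaled between libraries would be. Dividing by that number gave the estimated reads. The deposited FPKM values, also made by the authors, gave relative gene lengths and an alternative. All columns used were matched to samples by title, and 0 were unmatched.

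Genes averaging 10 or more scaled counts in the 24 libraries were fitted on log2(value + 2) with limma 3.58.1 (trend, R 4.3.3), with 1 mean for each side and cycle and 20 residual degrees of freedom. Adjusted p-values are Benjamini-Hochberg over all tested genes, and 0.05 is the threshold. Library measures were compared by two-sided permutation tests, exact for 6 against 6 and with 100000 resamples for 12 against 12 (scipy 1.17.1). The scripts were tested on simulated data.

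Named genes are, for dusk against dawn, the 2 in each direction with the largest change among called genes with a mean of at least 100 and no overlap of the 12 and 12 libraries (100 candidates higher, 356 lower), and for the cycle and stage differences the gene with the smallest p in each direction. The libraries, lists and tests were chosen with earlier results of these data known. Intervals cover counting error only.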

Additional observations from a re-analysis of the deposited data

Results flagged for a closer look

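The dusk-dawn difference differed between cycles, by the test of that difference, for 3 named genes (cycle 2 minus cycle 1, log2): 2.46 for TraesMAC5A03G02672320, -1.73 for TraesMAC5D03G03122770 and 1.61 for TraesMAC5B03G02898440. TraesMAC5A03G02672320 and TraesMAC5D03G03122770 were picked by the smallest p in that same test.

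The dusk-dawn difference differed between mature and senescent leaves (mature minus senescent, log2) by 2.75 for TraesMAC7A03G03886310, -1.77 for TraesMAC5A03G02672320, 1.36 for TraesMAC6B03G03627680 and -2.18 for TraesMAC5B03G02898440. TraesMAC6B03G03627680 and TraesMAC5B03G02898440 were picked by the smallest p in that same test. TraesMAC5A03G02672320 was low in senescent leaves, with medians of 6.82 at dusk and 7.15 at dawn, against 42.9 and 202 in mature leaves. At such levels the added 2 shrinks a log2 difference.

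In 2 of 44 groups of 6 libraries, 1 library stood far from the others of its group. Both concern TraesMAC5A03G02672320: a scaled count of 77.5 at dusk of cycle 1 (ZT59, replicate 2) and of 155 at dawn of cycle 2 (ZT75, replicate 2). Chance alone picks out about 1 in 20 groups.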

How the results depend on the processing

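The 4 genes named for dusk against dawn kept direction and call in all 42 settings each, including FPKM values and other pseudocounts. They were picked on these same libraries. Against 4183 higher and 5600 lower genes (42.8% higher), a minimum mean of 50 gave 2647 higher genes (37.1% higher), and scaling to the total of all genes gave 10742 and 3340 (76.3%). Adding a linear term over ZT, whose slope comes only from the 4 h spans within each side, gave 110 and 180 (37.9%). That term in place of the cycle levels, chosen after seeing the data, gave 2558 higher and 3828 lower genes (40.1%). Means of the 2 libraries of a time gave 2992 and 4262 (41.2%), cycle 2 alone 1077 and 1880 (36.4%), and a minimum of 1 log2 531 and 1297 (29.0%). Leaving out 1 replicate number gave 1151 to 1427 higher and 2150 to 2253 lower genes (33.8% to 39.9%). Leaving out 1 pair of hours gave 1635 to 4785 and 2561 to 6648 (39.0% to 42.8%), and leaving out 1 library 3700 to 4462 and 5107 to 5746 (41.5% to 43.7%). The cycle difference gave 842 genes at a minimum mean of 50, 249 with total scaling and 0 to 1 (limma) without 1 replicate number. Without 1 replicate number, 3195 to 3831 genes (7.57% to 9.07% of those tested) had an unadjusted p under 0.05. The stage difference gave 27 to 47, the change within dusk 263 to 275 and within dawn 8 to 141 without 1 replicate number. The difference in total scaled count was -923665 to -910031, with an adjusted p of 0.0864 without replicate 2 (exact permutation test). At a minimum mean of 50, 31.7%, 31.5% and 32.4% of genes were called on subgenomes A, B and D. The causes were not tested.

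Replicate numbers did not pair the samples: over 66 pairs of times, the correlation of replicate differences ran from -0.297 to 0.388 (median -0.02), with 8 over 0.1. With the replicate block, 4087 genes were higher and 5490 lower at dusk, and 191 differed between cycles. A count test on recovered reads was not run, because not all values came out whole.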

Other observations

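Genes that differed between dusk and dawn made up similar shares of the 3 subgenomes. The share of tested genes called was 23.3% on subgenome A (95% exact Clopper-Pearson interval 22.55% to 23.96%), 22.7% on B (22.0% to 23.4%) and 23.6% on D (22.9% to 24.3%), and over the 21 chromosomes it ran from 21.7% on 5B to 24.7% on 3D. Genes are not independent samples, so these intervals cover counting error only.

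Genes lower at dusk were shorter and more abundant than the rest. Relative to the median tested gene, the median length (from the ratio of scaled count to FPKM) was 1.10 for genes higher at dusk, 0.884 for genes lower at dusk and 1.01 for genes not called. Their median mean scaled counts were 61.8, 122 and 48.1 in the same order. No test was made of these medians.

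Some genes past 1 log2 stood next to another of their list in the order of identifiers on a chromosome, among tested genes, and most did not. Such a neighbour was found for 34 of 531 genes higher at dusk (6.40%, against 2.501% of all tested genes with such a neighbour) and for 233 of 1297 lower at dusk (18.0%, against 5.99%). No test was made of these shares. Whether neighbours are copies that share reads was not tested.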
